A study of Mus musculus with 6 samples.

Results

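The genes described here are 9 markers of cardiac fibroblasts (Pdgfra, Pi16, Gsn, Dpep1, Mfap5, Lum, Tcf21, Dcn and Dpt), measured in whole mouse hearts with and without cyclophilin D. Members were the probe sets whose only annotated gene symbol was 1 of these 9, and each gene had exactly 1 such probe set, so 9 of the 35557 probe sets on the array are members. Of those probe sets, 23410 carried at least 1 gene symbol and were tested, among them all 9 members. Hearts came from 3 Ppif-/- mice and 3 wild-type (WT) mice aged 8 weeks, and 1 Affymetrix Gene 1.0 ST array was made per heart. Both groups are labelled C57BL/6, and the Ppif-/- mice carried a global knockout of Ppif and had been backcrossed from a Sv129 background. The labels name no sex, no number of backcrosses and no litter. The series looked for transcripts that differ before the heart fails, and the question put to these markers was whether they move together or one by one.

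Fibroblasts make and turn over the collagen network of the heart and surround the muscle cells, and most of them descend from the epicardium. Pdgfra, the alpha receptor for platelet-derived growth factor, and Tcf21, a transcription factor of the helix-loop-helix class needed for fibroblasts to form, are widely used to recognise them. Matrix genes such as Dcn and Lum are abundant in resting fibroblasts, while Pi16 and Dpt mark a fibroblast state found in many tissues and close to vessels. Cyclophilin D, the product of Ppif, is a mitochondrial isomerase that helps the permeability transition pore to open, and a global knockout removes it from fibroblasts and muscle cells alike. In whole-heart RNA, fewer cells of a type and less RNA per cell cannot be told apart.

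The markers did not all behave alike. In 5 of 9 (Pdgfra, Pi16, Gsn, Dpep1 and Mfap5) every Ppif-/- heart lay below every WT heart, with mean levels at 66.6% to 79.8% of WT, while in the other 4 (Lum, Tcf21, Dcn and Dpt) the hearts of both genotypes overlapped, with means at 90.0% to 97.7% of WT. Of all probe sets tested, 10.6% had every Ppif-/- heart below every WT heart. Only Pdgfra among the 9 passed the limma test (Benjamini-Hochberg adjusted p under 0.05 over all probe sets tested), where 1.09% of all probe sets passed, 0.461% lower and 0.624% higher. All 9 means lay below WT in the fit on all 6 hearts, compared with 50.8% of all probe sets, and the median difference was -0.33 (log2, Ppif-/- minus WT) against -0.0023 over all probe sets tested. At an unadjusted limma p under 0.05, 5 of the 9 were lower, against a background of 6.81%. Values below are log2 expression made by RMA, so a difference of 1 is a doubling, and levels of different genes on an array are not compared with each other.

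**Figure D1:**
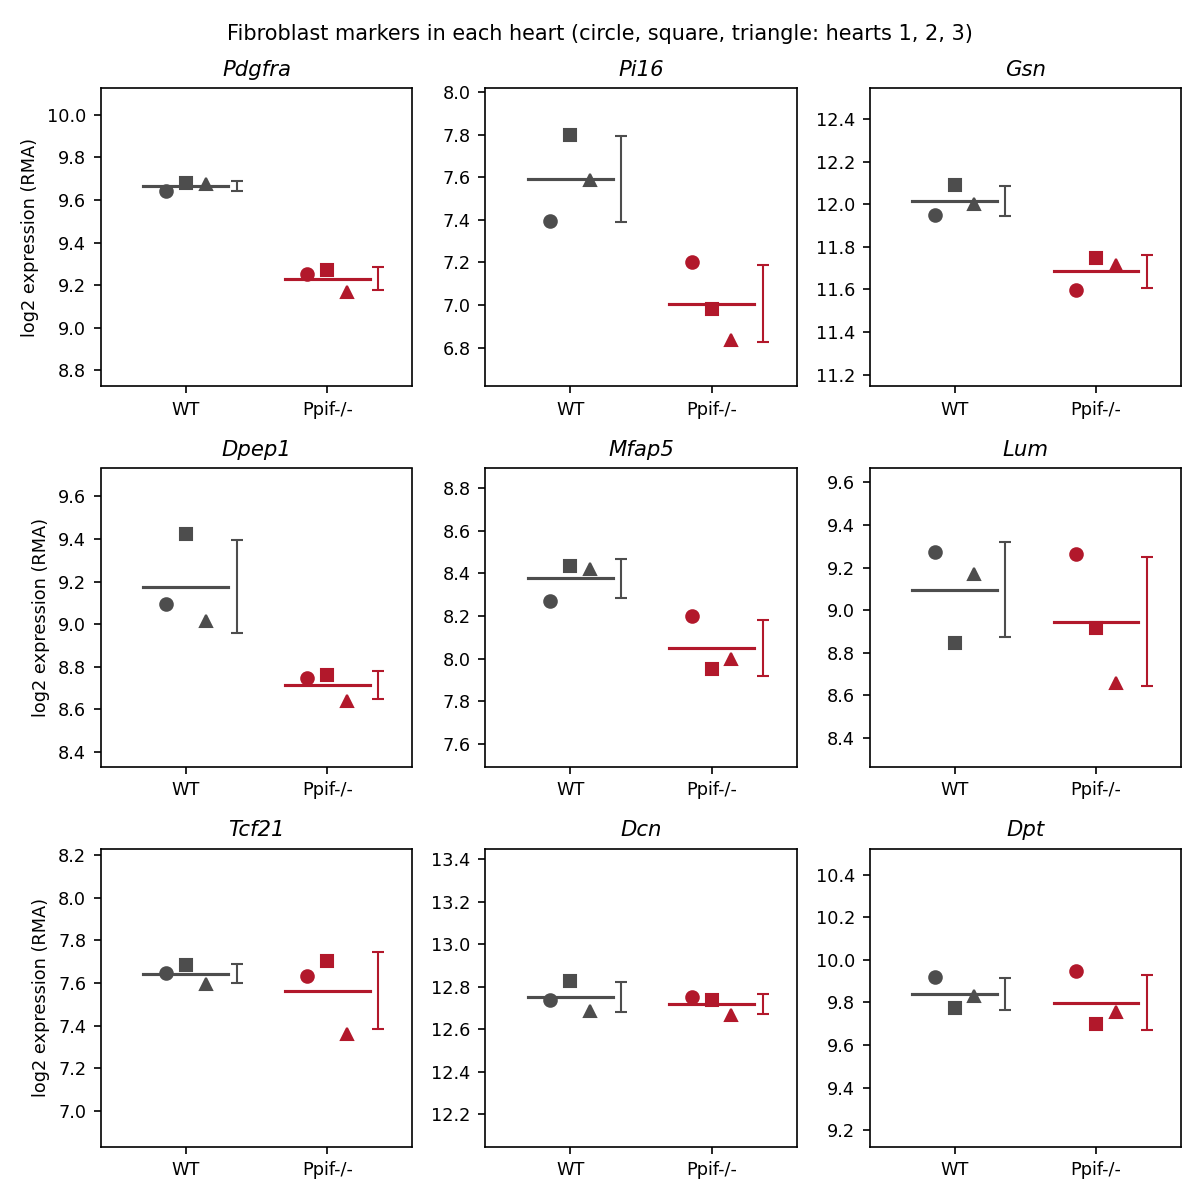
Log2 expression of each of the 9 markers in the 3 WT (grey) and 3 Ppif-/- (red) hearts, with the mean as a line and the SD as a bar beside it, every panel spanning the same log2 range. In the panels of Pdgfra, Pi16, Gsn, Dpep1 and Mfap5 the 3 red points lie below the 3 grey points, and in those of Lum, Tcf21, Dcn and Dpt they overlap.

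As a check of the labels, Ppif stood at 6.00, 6.25 and 6.44 in Ppif-/- hearts and at 11.44, 11.28 and 11.49 in WT hearts, a difference of -5.17 ± 0.12 (SE, limma adjusted p = 2.97e-06). Array medians ran from 6.03 to 6.11. The 12 cardiomyocyte markers averaged 13.41 to 13.45 per heart in both genotypes, as the tissue label has it. Precision is limited by the number of arrays, and for a single gene the smallest p that an exact permutation of 3 and 3 hearts allows is 0.1.

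At the cell surface, both markers read lower. Pdgfra read 9.25, 9.27 and 9.17 in Ppif-/- hearts 1 to 3 and 9.64, 9.68 and 9.68 in WT hearts 1 to 3. The hearts of a genotype lay close together and the groups were well apart, with an SD of 0.05 and 0.02. The difference of -0.44 ± 0.06 (SE, n = 3 each) put Ppif-/- hearts at 73.9% of WT (limma adjusted p = 0.0246). This call was lost whichever 1 of the 6 hearts was left out (Ppif-/- heart 1, 2 or 3 or WT heart 1, 2 or 3), with adjusted p = 0.0693 to 0.0991 and differences of -0.46 to -0.40, and when probe sets without a symbol were tested too (adjusted p = 0.0727).

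Dpep1, a dipeptidase anchored in the membrane, gave 8.75, 8.76 and 8.64 in Ppif-/- hearts and 9.09, 9.42 and 9.01 in WT hearts. Its Ppif-/- hearts were close to each other, while WT heart 2 stood above the other two WT hearts. The difference of -0.46 ± 0.11 was similar in size to that of Pdgfra, with a wider WT spread (SD 0.22), and did not pass (limma adjusted p = 0.129). With each heart left out in turn, it ranged from -0.54 to -0.34.

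Pi16, a peptidase inhibitor that is secreted or held at the membrane, had the most negative difference of the 9. Its level was 7.20, 6.98 and 6.84 in Ppif-/- hearts and 7.39, 7.80 and 7.59 in WT hearts. The groups did not overlap, although heart 1 of each genotype came close to the other group. The difference of -0.59 ± 0.13 (66.6% of WT) did not pass (limma adjusted p = 0.0923), with a 95% interval from -0.88 to -0.29. Dpt, or dermatopontin, a small matrix protein that binds decorin, is a marker of the same fibroblast state and read 9.95, 9.70 and 9.75 in Ppif-/- against 9.92, 9.77 and 9.83 in WT hearts. The hearts of both genotypes were interleaved, and the difference was -0.04 ± 0.09 (95% interval -0.24 to 0.16, limma adjusted p = 0.895). Set against Dpt in the same heart, Pi16 was at -0.55 ± 0.15 (limma adjusted p = 0.0139), in a fit that gave every probe set the same standard error and was chosen after the values were seen. All probe sets in that fit share the Dpt values, so the pooled error is not made of independent rows. The p is therefore not a measure of the spread of Pi16 over the hearts, and no conclusion is drawn from it.

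Gsn, gelsolin, which severs actin filaments and also has a secreted form, was 11.60, 11.75 and 11.71 in Ppif-/- hearts and 11.95, 12.09 and 12.00 in WT hearts. All 3 Ppif-/- hearts were below the WT hearts, and the spread within each genotype was small (SD 0.08 and 0.07). The difference of -0.33 ± 0.07 (79.6% of WT) missed the threshold over all probe sets tested (limma adjusted p = 0.103). It passed when only the brighter probe sets were tested (limma adjusted p = 0.0427) and with a variance trend (0.0193). In these fits 405 of 11705 and 453 of 23410 probe sets passed, against 254 of 23410 in the fit described above. Of 10 measured relatives among actin-severing and actin-binding proteins, 1 rose and 0 fell in limma, and their median difference was 0.01. The one that rose was Scin, scinderin or adseverin, from 6.34 ± 0.35 to 7.24 ± 0.07 (mean ± SD), a difference of 0.90 ± 0.16 in the direction opposite to Gsn (limma adjusted p = 0.0482). That call was lost with any 1 heart left out but WT heart 2 (adjusted p = 0.0607 to 0.160), and without WT heart 2 the adjusted p was 0.0187. It was also lost with quantile normalisation (0.0566) and robust variances (0.0514). Flii, the flightless homolog, was at -0.19 ± 0.07 (adjusted p = 0.271).

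The matrix markers differed in whether the hearts of both genotypes overlapped, and none of them passed in limma. Mfap5, a protein of the microfibrils that carry elastin, read 8.20, 7.95 and 8.00 in Ppif-/- hearts and 8.27, 8.43 and 8.42 in WT hearts. Ppif-/- heart 1 came close to WT heart 1, and the groups were otherwise well apart. The difference was -0.33 ± 0.09 (95% interval -0.53 to -0.12, limma adjusted p = 0.169). Of 9 other measured microfibril genes, 0 passed in limma (1 at an unadjusted p under 0.05), and 3 were lower without overlap, against 10.6% of all probe sets. Mfap2, the closest relative of Mfap5, was at -0.20 ± 0.06 (adjusted p = 0.231) and elastin (Eln) at -0.14 ± 0.08 (0.50).

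Dcn, decorin, a proteoglycan that coats collagen fibrils and binds TGF beta, gave 12.75, 12.74 and 12.67 in Ppif-/- hearts and 12.74, 12.83 and 12.69 in WT hearts. The groups overlapped almost completely. With a difference of -0.03 ± 0.07 and a 95% interval from -0.19 to 0.13 (limma adjusted p = 0.894), the interval did not reach the -0.44 measured for Pdgfra. Lum, lumican, a related proteoglycan of collagen fibrils, was the most variable marker, at 9.26, 8.92 and 8.66 in Ppif-/- hearts and 9.27, 8.85 and 9.17 in WT hearts. Its SD was 0.30 and 0.22, so the difference of -0.15 ± 0.17 has a 95% interval (-0.54 to 0.23) that covers 0 and the differences of Pdgfra, Gsn, Dpep1 and Mfap5, but not the -0.59 of Pi16 (limma adjusted p = 0.773).

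Dcn and Lum lie next to each other among the measured genes of chromosome 10, followed by Kera and Epyc of the same family. Of 13 other measured members of this proteoglycan family, 0 passed in limma, with 1 at an unadjusted p under 0.05. Their median difference was 0.03, with 5 of 13 below WT. Prelp, a proteoglycan of basement membranes and connective tissue, was at -0.21 ± 0.07 (adjusted p = 0.282), and Podnl1 at -0.26 ± 0.11 from a low level (0.404). Asporin (Aspn) at 0.26 and osteoglycin (Ogn) at 0.24 lay on the other side of 0, and both were chosen after their values were seen (limma adjusted p = 0.563 and 0.596).

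Tcf21, the only transcription factor among the 9, read 7.63, 7.70 and 7.36 in Ppif-/- hearts and 7.65, 7.69 and 7.596 in WT hearts. Ppif-/- hearts 1 and 2 matched the WT hearts, and heart 3 alone was lower. The difference was -0.08 ± 0.10 (95% interval -0.31 to 0.15, limma adjusted p = 0.802), and without Ppif-/- heart 3 it was 0.02. Among 9 other helix-loop-helix genes 0 passed in limma, and 2 at an unadjusted p under 0.05 lay in opposite directions. These were the heart factor Hand2 at 0.27 ± 0.09 (adjusted p = 0.258) and Msc, musculin, at -0.24 ± 0.09 (0.318).

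**Figure D2:**
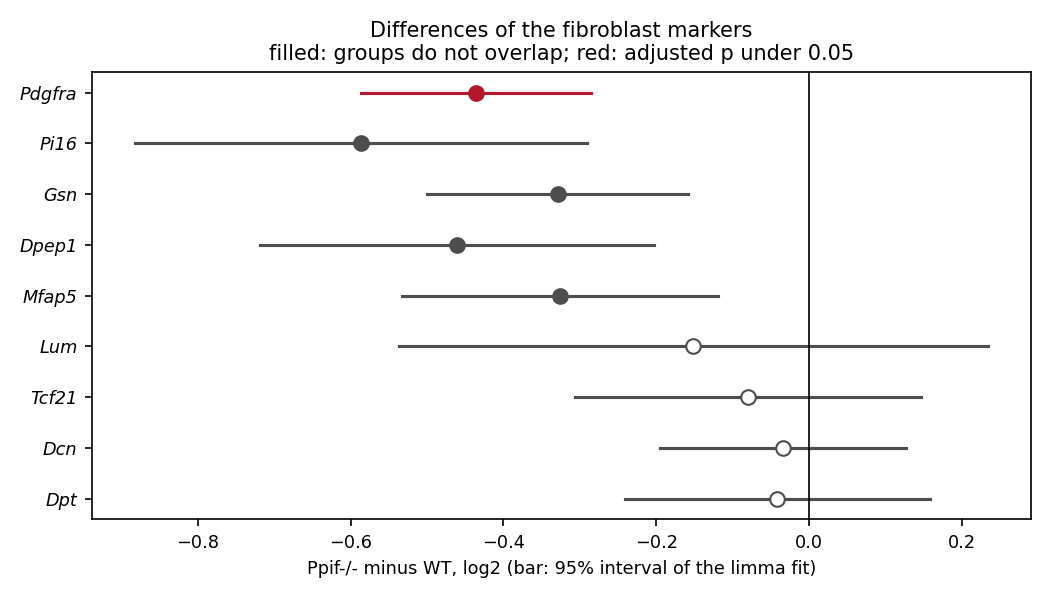
Ppif-/- minus WT difference of each of the 9 markers on the log2 scale with its 95% interval from the limma fit, filled where the groups do not overlap and red where the adjusted p is under 0.05. Intervals of the upper 5 markers lie below 0, and those of Lum, Tcf21, Dcn and Dpt include 0.

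Whether the lower markers also differed from decorin was asked by setting each against Dcn in the same heart and fitting all probe sets again. Each of the 9 markers was tried as the reference in this way, after the values were seen. Relative to Dcn, Pdgfra was at -0.40 ± 0.08 (limma adjusted p = 0.0637), Pi16 at -0.55 ± 0.11 (0.0734) and Dpep1 at -0.43 ± 0.09 (0.0940). Gsn and Mfap5 were at -0.30 ± 0.09 (0.217) and -0.29 ± 0.10 (0.276). All 5 had every Ppif-/- heart below every WT heart on this scale too, as did 6.95% of all probe sets. That is no separate support, since the 5 were already apart. Dcn varied little between hearts, from -0.09 to 0.08 around its WT mean, so taking it off changed their values little. In limma 0 of 8 passed (5 at an unadjusted p under 0.05), where 0.948% of all probe sets passed, 0.337% lower. Lum, Tcf21 and Dpt stayed within their spread of Dcn, at -0.12, -0.05 and -0.01 (95% intervals -0.50 to 0.26, -0.26 to 0.17 and -0.24 to 0.22). Relative to Dpt, 1 of 8 markers passed, Pi16, as did 2.53% of all probe sets (0.824% lower), while Pdgfra was at -0.39 (adjusted p = 0.193) and Dpep1 at -0.42 (0.137). Every Ppif-/- heart lay below every WT heart on that scale for 4 of 8 (Pdgfra, Pi16, Dpep1 and Mfap5) and for 2.93% of all probe sets. These 4 too were already apart without a reference. Relative to Lum and Tcf21, 0 of 8 passed in limma, with 0.619% and 2.27% of all probe sets called.

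With one of the 5 lower markers as the reference, far more probe sets passed in limma, from 41.1% to 91% of all, since the reference's own difference is taken from each of them. Relative to Pdgfra, 90% of all probe sets were called, and 3 of 8 markers (Tcf21, Dcn and Dpt) were higher. Pi16 as the reference gave 4 of 8 (Lum, Tcf21, Dcn and Dpt) at a background of 91%, Dpep1 gave 3 of 8 (Tcf21, Dcn and Dpt) at 77.2%, and Gsn gave 1 of 8 (Dcn) at 69.5%. Mfap5 as the reference gave 0 of 8 at 41.1%. The call of a pair thus depended on which gene was the reference: the 0.40 between Dcn and Pdgfra had a limma adjusted p of 0.00183 with Pdgfra as the reference and 0.0637 with Dcn. The fits on Pi16, Dpep1, Mfap5, Lum and Dpt gave 1 standard error to all probe sets. Their p-values rest on an error pooled over rows that share the reference, not on the spread of each gene. No pair of markers was called in both orientations except Pi16 and Dpt, and both of those fits are of this kind.

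Heart by heart, the 9 markers showed some shared order and some not. Taken as deviations from each gene's WT mean, the 9 averaged -0.17, -0.27 and -0.37 in Ppif-/- hearts 1 to 3 and -0.03, 0.04 and -0.02 in WT hearts 1 to 3. Ppif-/- heart 3 was the lowest of its genotype for 6 of 9 markers and the highest for 0, and all 9 lay below the WT mean in it, from -0.09 to -0.76. In Ppif-/- heart 1, 7 of 9 were below the WT mean, and it was the highest of its genotype for Pi16, Mfap5, Lum, Dcn and Dpt but the lowest for Gsn. WT heart 2 was the highest WT heart for 7 of 9 (Pdgfra, Pi16, Gsn, Dpep1, Mfap5, Tcf21 and Dcn) and the lowest for the remaining pair, Lum and Dpt. Lum and Dpt were both highest in WT heart 1 and, among Ppif-/- hearts, in heart 1. With 3 hearts per genotype such orders cannot be tested.

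**Figure D3:**
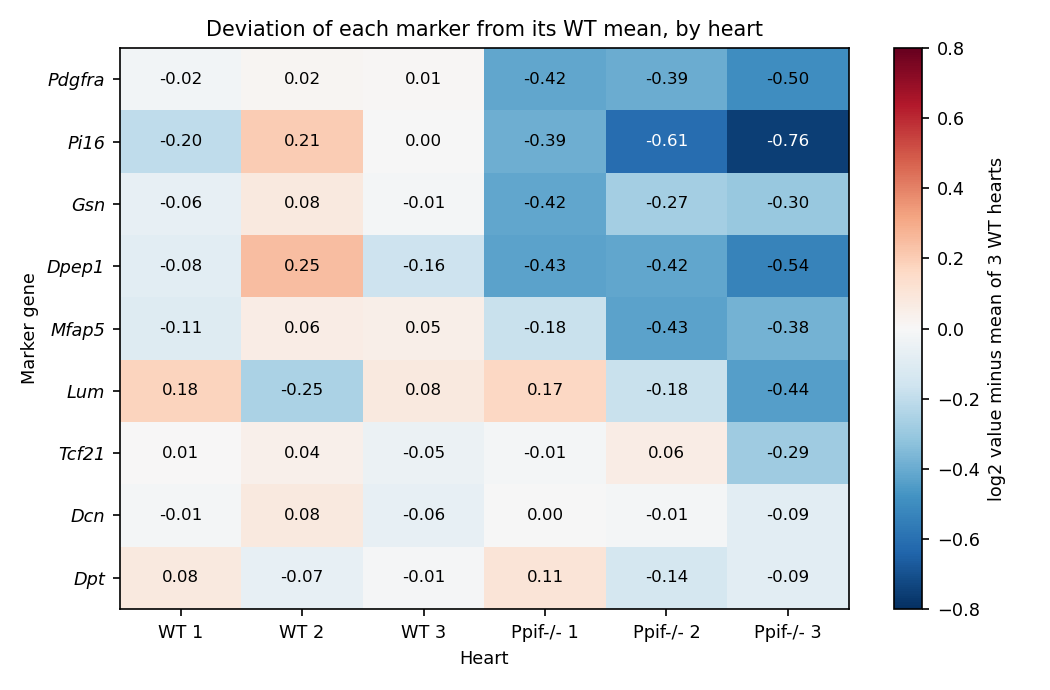
Log2 value of each marker in each heart minus that marker's mean over the 3 WT hearts (blue lower, red higher, values printed in the cells). The upper 5 rows are blue in all 3 Ppif-/- hearts, while the rows of Lum, Tcf21 and Dpt have Ppif-/- cells on both sides of 0, the 3 of Dcn run from -0.09 to -0.0006, and Ppif-/- heart 3 is below the WT mean in every row.

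The gene profiles most like that of Pdgfra were sought as the smallest root mean square distance between log2 values over the 6 arrays, each gene centred on its own mean. The 3 nearest were Rnaseh2a (0.0292), a subunit of ribonuclease H2, Ttc39c (0.0351) and Rnf157 (0.0365), with Ppif-/- minus WT differences of -0.41, -0.43 and -0.43. None of the 8 other fibroblast markers was as close, but the 3 were picked as the smallest distances among all probe sets with 1 symbol. Among the 8 markers the nearest were Gsn at 0.0842, Mfap5 at 0.103 and Dpep1 at 0.121, and the farthest was Lum at 0.252. The share of all genes as close as each marker was not computed. These distances therefore do not show whether Pdgfra follows the other markers. On the chromosome, the 10 measured genes on each side of each marker were taken by gene order, with their differences from the limma fit on all 6 hearts. They were 162 distinct genes, among them Dcn and Lum as neighbours of each other. The chromosomes were 5, 17, 2, 8, 6, 10, 10, 10 and 1 for Pdgfra, Pi16, Gsn, Dpep1, Mfap5, Lum, Tcf21, Dcn and Dpt. Of these 162, 0 passed in limma. At an unadjusted limma p under 0.05 were 32, a larger share than the 12.9% of all probe sets. The smallest limma adjusted p were those of Srsf3 near Pi16 (0.34, adjusted p = 0.0548), Dusp6 near Dcn and Lum (0.48, 0.0616) and Rasl11b near Pdgfra (-0.78, 0.0677). These were named after their values were seen.

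Start regions of the markers are shown to let the lower and the overlapping genes be compared in sequence. RefSeq start regions of build GRCm38.p6 (300 bases, 250 before and 50 after the annotated start) matched 6 of 9 markers, and Mfap5, Lum and Dcn had no entry. Those of Pdgfra, Pi16 and Dpep1, which were lower, and of Dpt, which was not, are printed 5′ to 3′ on the gene's strand, here always the + strand, with matches to the motifs named below in capitals. The regions are chr5:75152001-75152300 for Pdgfra, chr17:29318632-29318931 for Pi16, chr8:123185985-123186284 for Dpep1 and chr1:164796413-164796712 for Dpt.
Pdgfra: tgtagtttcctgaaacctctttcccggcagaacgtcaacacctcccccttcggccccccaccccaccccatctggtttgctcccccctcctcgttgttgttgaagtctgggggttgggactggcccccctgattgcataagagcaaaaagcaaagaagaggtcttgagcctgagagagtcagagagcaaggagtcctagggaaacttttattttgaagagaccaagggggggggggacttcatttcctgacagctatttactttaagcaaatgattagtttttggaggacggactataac
Pi16: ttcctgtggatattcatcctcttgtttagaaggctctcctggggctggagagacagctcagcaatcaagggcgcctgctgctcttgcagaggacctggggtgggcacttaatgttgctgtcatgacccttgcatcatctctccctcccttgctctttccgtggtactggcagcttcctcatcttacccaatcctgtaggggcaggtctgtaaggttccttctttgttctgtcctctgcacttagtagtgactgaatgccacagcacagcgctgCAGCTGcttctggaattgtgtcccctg
Dpep1: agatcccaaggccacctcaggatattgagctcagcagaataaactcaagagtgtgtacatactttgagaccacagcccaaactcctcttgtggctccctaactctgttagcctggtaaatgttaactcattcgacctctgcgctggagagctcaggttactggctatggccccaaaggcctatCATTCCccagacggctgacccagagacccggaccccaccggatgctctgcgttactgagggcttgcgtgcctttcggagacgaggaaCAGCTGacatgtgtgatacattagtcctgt
Dpt: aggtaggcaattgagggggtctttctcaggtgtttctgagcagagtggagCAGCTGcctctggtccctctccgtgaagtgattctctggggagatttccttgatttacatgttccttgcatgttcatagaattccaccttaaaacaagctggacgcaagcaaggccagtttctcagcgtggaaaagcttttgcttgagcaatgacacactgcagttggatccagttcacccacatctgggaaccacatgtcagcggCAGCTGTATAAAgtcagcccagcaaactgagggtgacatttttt

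The motifs searched on both strands were the E-box CAGCTG, bound by helix-loop-helix factors such as TCF21, the AP-1 site TGANTCA, the TEAD site CATTCC, the GC box GGGCGG and the TATA box TATAAA. An E-box CAGCTG was present at bases 274 to 279 in Pi16, 271 to 276 in Dpep1, and 51 to 56 and 257 to 262 in Dpt, counted from 1 at the left end, and in 2 of the 3 start regions of Gsn. Pdgfra and Tcf21 held none. Of all 32851 start regions of this length, 16.3% held CAGCTG. The E-box was thus found in a marker whose groups overlapped as well as in markers that were lower, and was missing from Pdgfra. Dpep1 also held a TEAD site at bases 184 to 189 (14.7% of all regions have CATTCC), and Dpt a TATA box directly after its later E-box, without overlap (13.6% have TATAAA). GC boxes were found among the 6 markers only in the 3 regions of Gsn (35.7% of all regions have GGGCGG), and AP-1 sites in 0 of the 6 markers (7.81% of all have TGANTCA). No match says only that the letters are not in this window.

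Other genes typical of fibroblasts lay lower in part. Of 25 listed, 23 were measured, 17 had a mean below WT, and the median difference was -0.13. In limma, 1 passed higher and 0 lower, and 6 were lower and 1 higher without overlap (10.6% and 9.21% of all probe sets). At an unadjusted limma p under 0.05, 6 were lower (6.81% of all probe sets were) and 1 higher. Averaged per heart, the 23 ran from 8.37 to 8.45 in Ppif-/- and from 8.46 to 8.54 in WT hearts. The gene that rose was Pcolce2, an enhancer of procollagen processing, from 8.56 ± 0.08 to 8.998 ± 0.026 (0.43 ± 0.07, limma adjusted p = 0.0356), a call lost in every fit with 1 heart left out (adjusted p = 0.0623 to 0.137). Scara5, a scavenger receptor of resting and adventitial fibroblasts, was at -0.36 ± 0.07 (adjusted p = 0.0705). Htra3, a secreted protease chosen after its value was seen, was at -0.51 ± 0.10 (adjusted p = 0.0753).

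Genes of fibroblast activation had a median difference of -0.01, against -0.0023 over all probe sets tested. Of 19 measured, 1 fell and 0 rose in limma, and 11 were below WT. At an unadjusted limma p under 0.05, 3 were lower (6.81% of all probe sets were) and 0 higher. Without overlap, 4 were lower and 0 higher (10.6% and 9.21% of all probe sets). Meox1, a homeobox factor of activated fibroblasts, fell from 7.38 ± 0.02 to 6.65 ± 0.22, a difference of -0.73 ± 0.11 (limma adjusted p = 0.0257). Its call held without Ppif-/- heart 1 (adjusted p = 0.0167) or 3 (0.0409) and was lost without Ppif-/- heart 2 or any single WT heart (0.0842 to 0.102). Ccn2, a matricellular protein induced by TGF beta, was at -0.37 ± 0.13 (adjusted p = 0.277), and periostin (Postn), the usual marker of activated fibroblasts, at 0.39 ± 0.19 (adjusted p = 0.437, chosen after its value was seen).

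Around Pdgfra itself, 0 of 6 other measured genes for PDGF ligands and receptors passed in limma, with 1 lower and 1 higher at an unadjusted p under 0.05. Pdgfrl, a receptor-like protein, was at -0.48 ± 0.09 from a low WT level of 6.26 (limma adjusted p = 0.0633), and the ligand gene Pdgfc, whose product binds the alpha receptor, at 0.61 ± 0.16 (0.154). The beta receptor Pdgfrb, a mark of pericytes, read 9.65, 9.96 and 9.82 in Ppif-/- and 9.80, 9.80 and 9.86 in WT hearts, a difference of -0.01 ± 0.09. The ligands Pdgfa, Pdgfb and Pdgfd were at 0.01, 0.05 and 0.01, and with Pdgfrb they complete the list, outside the rule for named genes. Next to Dpep1, the dipeptidase relatives Dpep2 and Dpep3 were at -0.18 and 0.02 (adjusted p = 0.685 and 0.967), and the other Dpep2 probe set had the opposite sign.

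Smooth muscle markers were among the genes at lower levels beside the fibroblast markers. Averaged per heart, the 9 fibroblast markers ran from 9.20 to 9.40 in Ppif-/- and from 9.55 to 9.62 in WT hearts, and 12 pericyte and smooth muscle markers from 9.42 to 9.50 and from 9.58 to 9.67. Of those 12, 11 had means below WT (50.8% of all probe sets did) and 5 were lower without overlap (10.6%), and 1 passed in limma (0.461% lower), the smooth muscle gene Tagln (-0.51 ± 0.08, adjusted p = 0.0332), whose call was lost whichever heart was left out (adjusted p = 0.0537 to 0.122). The smooth muscle myosin Myh11 was at -0.53 ± 0.11 (adjusted p = 0.0701), and the pericyte gene Rgs5 at 0.27 ± 0.07 (adjusted p = 0.129). The pericyte genes Kcnj8, Vtn and Pdgfrb were each at -0.01, and these and Rgs5 were chosen after their values were seen. The part of these cells in the fibroblast result was not tested.

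For the other cell types, the ranges of both genotypes overlapped. Macrophage markers averaged 8.09 to 8.20 in Ppif-/- and 8.06 to 8.11 in WT hearts, with Cd68 higher (0.56 ± 0.09, limma adjusted p = 0.0394, lost whichever heart was left out, at 0.0551 to 0.145) and Cd163 at -0.53 ± 0.12 (0.0964). The 12 endothelial markers averaged 9.87 to 9.99 and 9.91 to 9.94, and the 10 markers of epicardium and mesothelium 5.80 to 5.84 and 5.76 to 5.87. Of these 10, 6 had means below WT, and the list median was -0.03, with differences from -0.29 to 0.28. At an unadjusted limma p under 0.05, 2 were higher and 1 lower. Wt1 was at 0.28 ± 0.08 (limma adjusted p = 0.169) and Msln at 0.21 ± 0.06 (0.219). For 7 lymphocyte, 6 Schwann and nerve, 6 adipocyte, 3 red blood cell, 8 skeletal muscle and 8 valve and cartilage markers, as for endothelium, epicardium and cardiomyocytes, 0 passed in limma. At an unadjusted limma p under 0.05 were 2 endothelial markers, both higher, the 3 epicardial ones given above and 1 cardiomyocyte marker, which was lower. In either direction, 12.9% of all probe sets were. Without overlap, 3 endothelial, 2 epicardial and 2 cardiomyocyte markers were higher (9.21% of all probe sets), and 0, 0 and 1 lower (10.6%). In the lists from lymphocyte to valve, in that order, 2, 1, 0, 1, 0 and 1 genes had an unadjusted p under 0.05. All of these were lower except the red blood cell gene. The medians of these lists were -0.01, -0.09, 0.03, 0.01, 0.02 and 0.01.

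**Figure D4:**
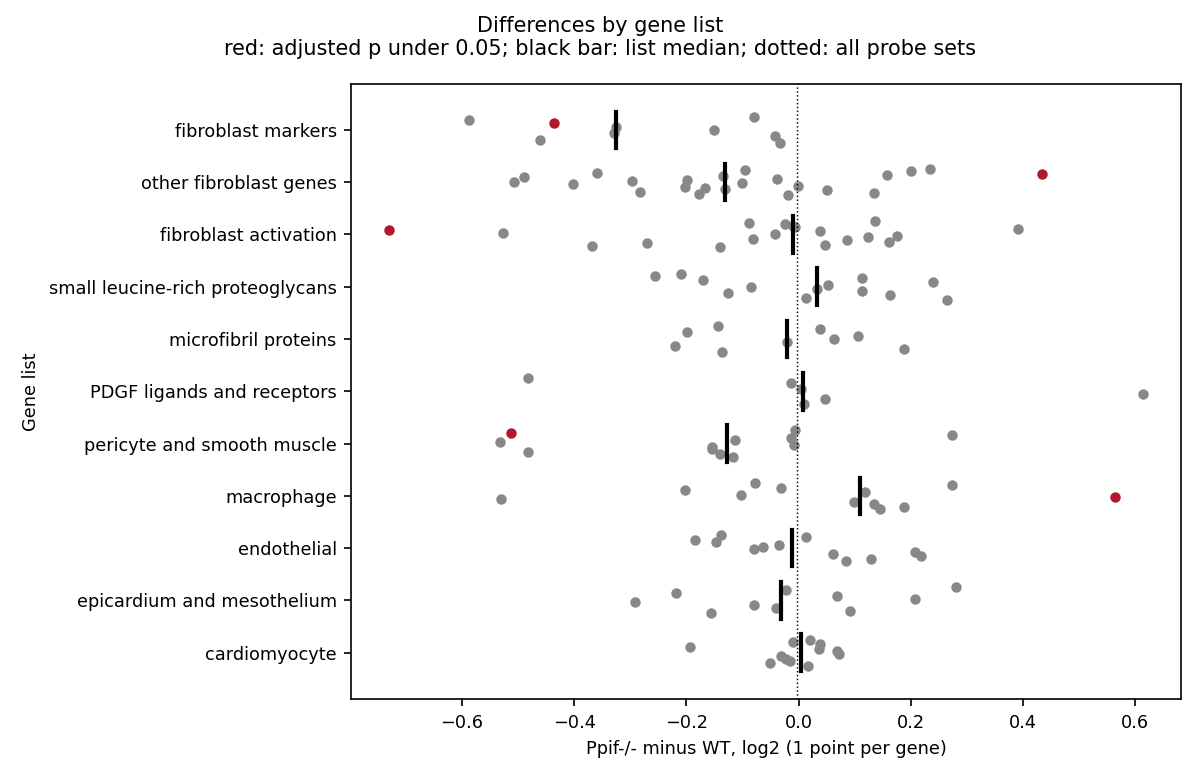
Ppif-/- minus WT differences (log2) of the genes in each list, 1 point per gene, with the list median as a black bar, genes with an adjusted p under 0.05 in red and the median of all probe sets tested as a dotted line. The 9 markers have a median of -0.33, other fibroblast genes -0.13, pericyte and smooth muscle genes -0.13 and macrophage genes 0.11. Medians of the remaining lists shown run from -0.032 to 0.033.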

How the data were processed

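The authors deposited 1 log2 value per probe set and array, made with RMA per the submitters' processing notes (background correction, normalisation across arrays and 1 summary per probe set). No source used here names the software or a filter. Differences at low signal are understated by RMA. Values were used as deposited, with 0 columns lacking a sample and 0 identical array pairs. No batch is labelled.

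Gene symbols came from the platform annotation and were brought up to date through Entrez identifiers (21698 of 21789 probe sets with 1 symbol matched). The 23410 with a symbol were fitted with limma 3.58.1 in R 4.3.3 (lmFit, eBayes, 2-sided, no covariates), with Benjamini-Hochberg adjustment at 0.05. The procedure was tested on simulated data. Members and lists were chosen with earlier results of these data known. In lists, 192 of 206 listed symbols were matched to a measured gene, and the brightest probe set stood for each. Named are all members and, per list, up to 4 genes past the threshold or the 2 with the smallest p. The endothelial and cardiomyocyte lists and those from lymphocyte to valve are instead summarised without naming genes. Kera and Epyc are named only for their position, and other genes outside the rule are marked where they stand. Alternatives were a replicate block, filters, scalings, variance models, array weights, leaving out each heart and, added after the data were seen, values relative to each of the 9 markers in turn.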

Additional observations from a re-analysis of the deposited data

How the results depend on the processing

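With equal numbers of hearts per genotype, the filters, the replicate block and the trend and robust variance models cannot change a marker's difference. They therefore say nothing about its side of 0. Quantile normalisation, centring on array medians and array weights can change it, and under each of these all 9 markers stayed below 0 with all 6 hearts. The count of markers past the threshold, 1 in the fit described, was 0 with the replicate number as a block, 0 when all probe sets were tested, 0 relative to Dcn, Lum, Tcf21 or Mfap5, 3 relative to Pdgfra or Dpep1, 4 relative to Pi16, 1 relative to Gsn (Dcn) or Dpt (Pi16), 0 whichever heart was left out, and 2 on the brighter probe sets or with a variance trend, where Gsn (-0.33) joined Pdgfra. Pdgfra stood at -0.44 (adjusted p = 0.0929) with the block, -0.44 over all probe sets -0.40 relative to Dcn and -0.39 relative to Dpt, and at -0.46 to -0.40 without 1 heart. Relative to Dpt, Pi16 passed at -0.55, in the fit with 1 standard error for all probe sets, and Dcn was at 0.0080. Leaving out 1 heart gave -0.15 to 0.023 for Tcf21, -0.066 to 0.0049 for Dcn and -0.11 to 0.0092 for Dpt, the positive ends without Ppif-/- heart 3, WT heart 2 and Ppif-/- heart 2. Over all 23410 probe sets tested, the 254 calls became 160 with the block, 453 with a trend, 386 with array weights and 131 to 171 without 1 heart. There were 405 calls among the 11705 brighter probe sets and 131 among the 35557 of the whole table. More probe sets of all kinds thus passed in the settings where Gsn joined Pdgfra. Hearts of the same number did not deviate together in every pair (correlations -0.08, -0.06 and 0.12), so the numbers are not taken as pairs. The block also ended the calls of Pcolce2, Scin, Tagln and Cd68 (adjusted p = 0.0887 to 0.0983), and testing all probe sets ended these and that of Meox1 (0.0982 to 0.152). Fewer or more probe sets tested, and fewer hearts, change the adjustment by construction, and the cause of the other changes was not tested. No detection calls were given, so how far each marker lay above background is not known.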
